A study of Homo sapiens with 24 samples.

Results

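MYC, its partner MAX and the MAX-binding repressors MXD1, MXD3, MXD4, MXI1 and MNT were followed in human fibroblasts through 8 days of RAS induction. Each of the 7 genes was read from its Illumina probe with the highest mean log2 intensity over the 24 arrays of the authors' normalized table. All 7 had a probe, and all 7 passed the filter on dim probes, among 10952 genes that did so of 18774 named on the array. The cells were IMR90, a line of fetal lung fibroblasts, carrying ER:RAS-G12V. This is a RAS protein with the G12V change joined to the estrogen receptor so that 4-hydroxytamoxifen (4-OHT) switches it on. The 0 h cells carry the construct as well and had no 4-OHT, and the other 7 groups had 100 nM 4-OHT for 2 h, 8 h, 24 h, 2 d, 4 d, 6 d or 8 d. Each group had 3 arrays, from biological batches A, B and D, all cells grew in medium with 10% serum, and all were passaged the day before harvest. Cells kept without 4-OHT to later times are not analysed here, so 4-OHT, active RAS and time in culture cannot be told apart. The RAS gene used, the promoter that drives it, and whether the line is a clone or a pool are not given in the sources used here.

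MYC is a transcription factor that binds DNA only when paired with MAX, at E-box sequences such as CACGTG, and it raises genes of ribosome assembly, nucleotide synthesis and cell growth. MXD1, MXI1, MXD3, MXD4 and MNT compete for MAX, bind the same sequences and recruit SIN3 and histone deacetylases, so the pairs that MAX forms set whether such genes are raised or lowered. In fibroblasts MYC RNA is known to respond within hours to serum and RAS-ERK signals, and MXD proteins are known for their rise when cells leave the cycle. The arrays measure RNA, not protein, dimers or DNA binding.

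E-box matches were looked for in the 250 bases before each RefSeq transcription start (GRCh38.p14) for the 6 genes that the promoter table holds, which leaves out MYC. The motif searched was CACGTG, which reads the same on both strands. It was present in 1 start region of MXD4 and 1 of MNT, and in none of the windows of MXD1, MXD3, MAX or MXI1. That is 2 of 9 windows, and over all 35116 windows of this length in the table it is 2228, or 6.34%. The windows of MXD4 (chr4:2262110-2262359, minus strand), MNT (chr17:2401061-2401310, minus strand) and MXD3 (chr5:177312753-177313002, minus strand) are printed 5′ to 3′. The first 2 are shown because they hold the motif, in capitals, 238 and 193 bases before the start, and the MXD3 window because that gene was called lower at 6 of 7 later time points and these letters are not in it. A match is a description of the sequence and says nothing of binding.
MXD4: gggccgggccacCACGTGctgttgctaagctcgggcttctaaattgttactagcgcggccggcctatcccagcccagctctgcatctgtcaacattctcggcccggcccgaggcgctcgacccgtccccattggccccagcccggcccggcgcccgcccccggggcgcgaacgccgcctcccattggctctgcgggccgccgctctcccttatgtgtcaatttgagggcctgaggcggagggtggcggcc
MNT: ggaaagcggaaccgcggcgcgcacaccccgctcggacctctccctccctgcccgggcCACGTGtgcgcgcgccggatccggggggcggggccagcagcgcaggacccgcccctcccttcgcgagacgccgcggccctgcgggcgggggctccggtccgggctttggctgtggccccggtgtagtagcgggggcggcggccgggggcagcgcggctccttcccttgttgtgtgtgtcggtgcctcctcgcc
MXD3: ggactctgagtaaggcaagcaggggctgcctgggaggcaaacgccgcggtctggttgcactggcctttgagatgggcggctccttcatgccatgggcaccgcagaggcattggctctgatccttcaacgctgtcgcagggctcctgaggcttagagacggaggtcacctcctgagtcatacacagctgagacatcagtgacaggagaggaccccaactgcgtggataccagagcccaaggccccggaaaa

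The label of the cells was checked against marker genes. All 12 fibroblast markers, such as COL1A1, VIM and THY1, were above background on all 24 arrays, although their summed intensity was between 56386 and 62958 at 0 h and between 30376 and 32246 at 8 d. No epithelial marker of 10 was above background on every array, and 8 were above it on 0 arrays. TEK alone of 8 endothelial markers, and CD68 and CSF1R of 7 immune markers, were read on all 24, while PTPRC, CD3E and CD14 were read on 0. VWF was read on 18 arrays, TIE1 on 11, CLDN5 on 8, PECAM1 on 5 and KDR on 3. Of the 6 endothelial markers tested, 2 were lower at 24 h and 1 at 2 d, with 0 higher. At 4 d 2 were higher, at 6 d 1 and at 8 d 2, with 0 lower. The largest shares were 33.3%, lower at 24 h and higher at 4 d and 8 d, against 11.2%, 21.8% and 24.1% of all genes. The summed intensity of the 7 immune markers was between 1149 and 1266 at 0 h and between 2114 and 2289 at 8 d. Of the 2 tested, CD68 and CSF1R, 1 was called higher at 24 h, or 50% against 6.89% of all genes. Both were called higher at 2 d, 4 d, 6 d and 8 d (medians from 0.69 to 0.90). That is 100% each time, against 11%, 21.8%, 23.8% and 24.1% of all genes. The part of these endothelial and immune markers in the members' results was not tested. A principal component analysis put 65.2% of the variance on one axis, and the 3 arrays of 4 d were spread along it, with scores of 33.6 in batch A, 46.7 in B and 24.9 in D, so results at 4 d are also given without each of them where that changes a call.

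Expression values are log2 intensities and differences are in log2 units, each with the standard error of the limma fit of all 24 arrays (n = 3 arrays a group). A gene is called when its limma p, adjusted by Benjamini-Hochberg over all 10952 genes, is under 0.05. Each of the 7 members differed among the time points by the moderated F test, as did 69.7% of all genes tested. The adjusted p of this F test ran from 3.39e-12 for MXD3 to 0.0110 for MXI1. Against 0 h, 1 member was higher and 1 lower at 2 h, where 0.621% of all genes were called, 0.42% higher and 0.201% lower. The count was 1 higher and 2 lower at 8 h, against 2.13% and 2.46% of all genes (4.58% together). It was 1 higher and 2 lower at 24 h, against 6.89% and 11.2% of all genes (18.1%), and 0 and 3 at 2 d, against 11% and 12.5% (23.6%). At 4 d 2 members were higher and 1 lower, against 21.8% and 22.3% of all genes (44.1%), so 3 of 7 is close to the background share. At 6 d and at 8 d 4 were higher and 1 lower, where 45.5% of all genes (23.8% higher, 21.7% lower) and 47.6% (24.1% and 23.5%) were called.

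Between neighbouring time points, the step from 2 d to 4 d held most calls, 3 members higher and 2 lower, where 36.2% of all genes were called, 17% higher and 19.2% lower. The step from 2 h to 8 h had 0 higher and 2 lower, against 2.47% and 2.77% of all genes (5.23%). That from 8 h to 24 h had 0 higher and 1 lower, against 2.23% and 4.88% (7.11%), and that from 24 h to 2 d 1 and 1, against 6.75% and 5.28% (12%). From 4 d to 6 d 1 member rose and 0 fell, against 4.94% and 4.03% of all genes (8.97%). From 6 d to 8 d limma called 0 members, with 1, MYC, at an unadjusted p under 0.05, where 1.19% of all genes were called (0.457% higher and 0.73% lower). The 7 comparisons with 0 h share its 3 arrays. In bulk RNA, a change in every cell and a change in the share of cells that carry the RNA cannot be told apart.

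**Figure D1:**
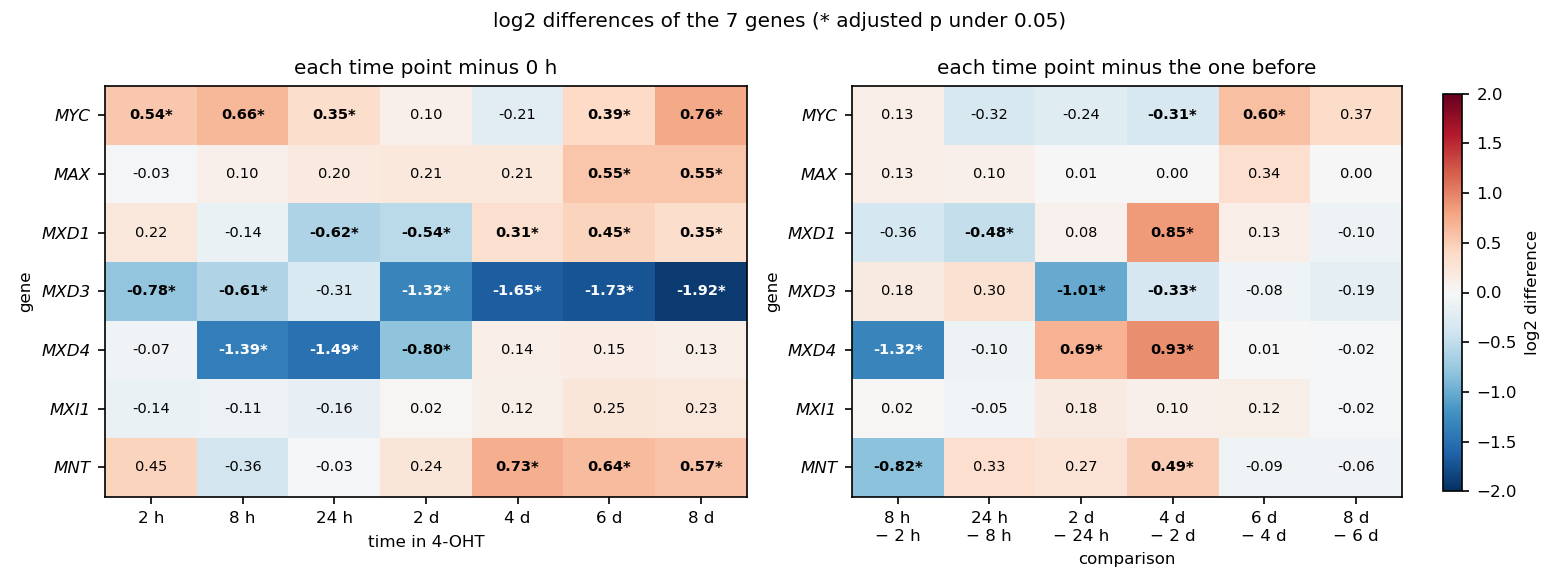
Log2 differences of the 7 genes (rows) in each comparison (columns), against 0 h on the left and against the time point before on the right; colour gives sign and size, and bold values with an asterisk passed an adjusted p of 0.05 (limma, n = 3 arrays a group). MXD3 is lower at 6 of 7 later time points, MXD4 only at 8 h, 24 h and 2 d, and MYC is higher at 2 h, 8 h, 24 h, 6 d and 8 d.

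MYC, the activating member, was higher from 2 h to 24 h, was not called against 0 h at 2 d and 4 d, and was higher again at 6 d and 8 d. Its gene is on chromosome 8, and its single probe was above background on all 24 arrays. In batches A, B and D, in that order throughout, MYC was at 9.74, 9.89 and 9.60 at 0 h, at 10.43, 10.33 and 10.08 at 2 h, and at 10.51, 10.37 and 10.34 at 8 h. The 2 h and 8 h arrays all lay above the 0 h arrays. MYC then stood at 10.03, 10.17 and 10.07 at 24 h, at 9.79, 9.88 and 9.88 at 2 d, and at 9.71, 9.38 and 9.51 at 4 d. The 24 h arrays were still above those at 0 h, and the 2 d and 4 d arrays overlapped them. Late in the course MYC was at 10.19, 10.11 and 10.11 at 6 d and at 10.44, 10.43 and 10.64 at 8 d, again with no overlap with 0 h.

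Against 0 h, MYC was 0.54 ± 0.11 higher at 2 h (1.45-fold, limma adjusted p = 0.0144) and 0.66 ± 0.11 higher at 8 h (1.58-fold, adjusted p = 0.000614). The difference was 0.35 ± 0.11 at 24 h (adjusted p = 0.0278), and the values at 2 d (0.10, adjusted p = 0.541) and 4 d (−0.21, adjusted p = 0.124) did not pass. The 95% interval of the 4 d difference ran from −0.43 to 0.02. At 6 d MYC was 0.39 ± 0.11 higher (adjusted p = 0.00452) and at 8 d 0.76 ± 0.11 higher (1.69-fold, adjusted p = 3.23e-06), the largest of its 7 differences. Of the steps between neighbours, the fall from 2 d to 4 d (−0.31 ± 0.11, adjusted p = 0.0263) and the rise from 4 d to 6 d (0.60 ± 0.11, adjusted p = 0.00100) passed. In the order of means, 8 d, 8 h, 2 h, 6 d and 24 h, then 2 d, 0 h and 4 d, every neighbouring pair overlapped except 24 h and 2 d. The difference of MYC between its highest and lowest time point, 0.97, was larger than that of 76% of the genes tested, whose median was 0.595.

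The rise of MYC at 8 d kept its call under all 32 alternatives, from 0.47 to 0.87. Its 2 h call was lost with median centring (0.32, adjusted p = 0.473), without the 0 h array of batch A (adjusted p = 0.0656) or D (0.117) or the 2 h array of batch A (0.141) or B (0.106), and without all of batch A (1.00) or B (0.303). The 8 h call was lost without batch A (0.61, adjusted p = 0.119). The 24 h call was lost with median centring (0.18, 0.596), with no filter on dim probes (0.0548), without the 0 h array of batch A (0.0683) or D (0.147) or the 24 h array of batch B (0.105) or D (0.0544), and without batch A (0.155), B (0.115) or D (0.134). At 6 d it was lost with median centring (0.20, 0.425) and without batch A (0.0747). The step from 2 d to 4 d was lost with median centring (0.299), no filter (0.0526), without the 2 d array of batch B (0.0766) or D (0.0688) or the 4 d array of batch B (0.136) or D (0.0609), and without batch A (0.0507), B (0.331) or D (0.0750). That from 4 d to 6 d was lost with median centring (0.121) and without batch B (0.0615).

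MAX, the obligate partner of MYC and of the repressors, was higher late in the course by 2 of its 3 probes. Its gene is at chr14:65006101-65102695. The probe with the highest mean was above background on all 24 arrays but dim, with group means between 5.78 and 6.36. On the probe with the highest mean, MAX was at 5.68, 5.86 and 5.89 at 0 h, at 5.67, 5.66 and 6.02 at 2 h, and at 5.77, 5.93 and 6.04 at 8 h. It was at 5.96, 5.95 and 6.12 at 24 h, at 5.98, 5.95 and 6.14 at 2 d, and at 5.79, 6.31 and 5.97 at 4 d. The level was then 6.45, 6.63 and 6.02 at 6 d and 6.30, 6.44 and 6.35 at 8 d. All 6 d and 8 d arrays lay above all 0 h arrays, with the batch D array at 6 d closest to them. The differences were 0.55 ± 0.14 at 6 d (limma adjusted p = 0.00282) and 0.55 ± 0.14 at 8 d (1.47-fold, adjusted p = 0.00278). By batch the 6 d difference was 0.76 in A, 0.77 in B and 0.12 in D. From 2 h to 4 d no difference passed, and the values lay between −0.03 and 0.21. MAX varied by 0.58 between its extreme time points, more than 48.3% of genes.

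The 3 MAX probes gave different late values, and the difference between probes was not tested. All 3 were dim. Those for NM_145114 and NM_197957 were above background on 24 arrays and that for NM_145113 on 23, but not at 2 h in batch A (5.41). The probe designed on transcript NM_197957 was at 5.83, 5.86 and 5.68 at 0 h and at 6.35, 6.38 and 6.41 at 8 d, a difference of 0.59 ± 0.14 (limma adjusted p = 0.000907), and was 0.54 ± 0.14 higher at 6 d (adjusted p = 0.00207), by 0.70 in A, 0.17 in B and 0.76 in D. The probe designed on NM_145113 was at 6.20, 5.73 and 5.74 at 0 h and at 6.04, 5.73 and 5.80 at 8 d. Those arrays overlapped, with a difference of −0.032 ± 0.15 at 8 d (adjusted p = 0.884) and 0.12 ± 0.15 at 6 d (adjusted p = 0.542). MAX therefore rose on the probes for NM_145114 and NM_197957 and did not pass on the third. On the first probe the 6 d call was lost without batch A (0.45, adjusted p = 0.103) or B (0.44, 0.0576), and the 8 d call without batch A (0.52, 0.0542).

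**Figure D2:**
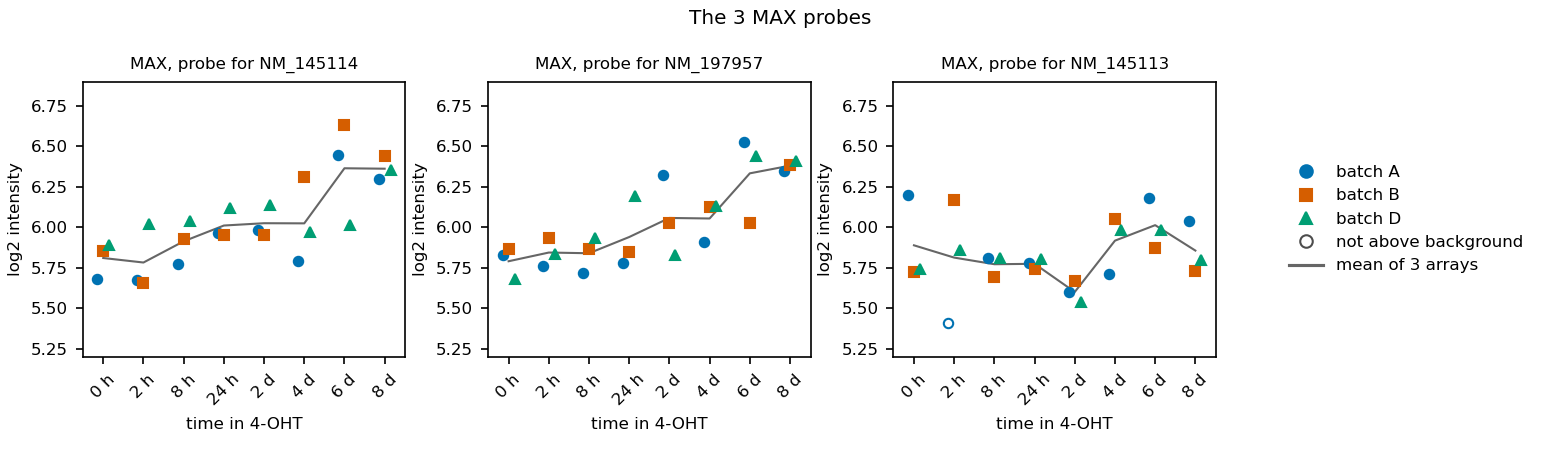
Log2 intensity (vertical axis, the same range in each panel) of the 3 MAX probes at each time point (horizontal axis); each point is 1 array, marked by batch, open where not above background, and the line joins means of 3 arrays. The probes for NM_145114 and NM_197957 end 0.55 and 0.59 above 0 h, and that for NM_145113 differs from it by −0.032.

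Among the repressors, MXD4 fell between 2 h and 8 h and rose again to levels not called against 0 h. MXD4, on chromosome 4 (chr4:2247432-2262109), was above background on all 24 arrays. It was at 10.29, 10.12 and 10.85 at 0 h and at 10.41, 10.21 and 10.43 at 2 h. At 8 h it stood at 8.95, 8.70 and 9.45, at 24 h at 8.85, 8.88 and 9.06, and at 2 d at 9.67, 9.49 and 9.71. All 9 arrays from 8 h to 2 d lay below all 6 of the earlier arrays. MXD4 was then at 10.46, 10.78 and 10.43 at 4 d, at 10.71, 10.68 and 10.32 at 6 d, and at 10.29, 10.63 and 10.73 at 8 d, which overlapped 0 h.

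MXD4 fell by 1.39 ± 0.18 at 8 h (2.62-fold lower, limma adjusted p = 7.96e-05), by 1.49 ± 0.18 at 24 h (2.81-fold lower, adjusted p = 4.04e-06) and by 0.80 ± 0.18 at 2 d (adjusted p = 0.00230). At 2 h the difference was −0.07 (adjusted p = 0.993). Most of the fall lay in the step from 2 h to 8 h (−1.32 ± 0.18, adjusted p = 0.000425), and the return in the steps from 24 h to 2 d (0.69 ± 0.18, adjusted p = 0.0134) and from 2 d to 4 d (0.93 ± 0.18, adjusted p = 0.000287). At 4 d, 6 d and 8 d MXD4 was 0.14, 0.15 and 0.13 above 0 h and did not pass, with 95% intervals from −0.24 to 0.51, −0.22 to 0.52 and −0.25 to 0.50. The batch D array at 0 h was the highest of the 3, and within batch D the late differences were −0.42, −0.53 and −0.12. They were 0.17, 0.43 and −0.0010 in A and 0.66, 0.55 and 0.50 in B. Under an alternative that left out an array or batch, every member was called at 6 d, MXD4 among them. The falls at 8 h, 24 h and 2 d and the step from 2 d to 4 d kept their calls under all 32 alternatives. The step from 2 h to 8 h was lost without batch A (−1.25, 0.121), and that from 24 h to 2 d without the 24 h array of batch A (0.0560) or B (0.0565), the 2 d array of batch D (0.0594), batch A (0.254) or batch B (0.0666). MXD4 spanned 1.64 between time points, more than 91.3% of genes tested.

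MXD1, the founding member of the MXD repressors and known for its rise in differentiating cells, also fell and came back. It was first called lower at 24 h and was called higher than at 0 h from 4 d. MXD1 (chr2:69915109-69942945) was above background on all 24 arrays. It was at 7.19, 7.14 and 7.31 at 0 h, at 7.62, 7.48 and 7.20 at 2 h, and at 7.21, 6.99 and 7.03 at 8 h. At 24 h it was at 6.63, 6.72 and 6.45 and at 2 d at 6.41, 6.74 and 6.89, all below 0 h. MXD1 then stood at 7.42, 7.63 and 7.54 at 4 d, at 7.73, 7.76 and 7.50 at 6 d, and at 7.46, 7.57 and 7.66 at 8 d, all above the highest 0 h array.

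MXD1 fell by 0.62 ± 0.13 at 24 h (1.53-fold lower, limma adjusted p = 0.00132) and by 0.54 ± 0.13 at 2 d (adjusted p = 0.00330). It was higher than 0 h by 0.31 ± 0.13 at 4 d (adjusted p = 0.0477), 0.45 ± 0.13 at 6 d (1.36-fold, adjusted p = 0.00567) and 0.35 ± 0.13 at 8 d (adjusted p = 0.0260). With the batch letter as a replicate block the 4 d call was lost (adjusted p = 0.0552). The step from 8 h to 24 h was −0.48 ± 0.13 (adjusted p = 0.0208), and that from 2 d to 4 d 0.85 ± 0.13 (1.80-fold, adjusted p = 1.46e-05), the largest of its steps. At 2 h, 2 of 3 batches were higher than their 0 h array (0.43 in A, 0.34 in B, −0.11 in D) and the mean, 0.22, did not pass (adjusted p = 0.854).

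The fall of MXD1 at 24 h and its rise from 2 d to 4 d kept their calls under all 32 alternatives. The 2 d call was lost without batch A (−0.41, adjusted p = 0.127). The 4 d call was the least secure of the member results: it was lost under 19 of 32 alternatives, namely median centring (0.19, adjusted p = 0.429), no filter (0.0819), batch A out (0.0963), batch B out (0.388), and the replicate block, and leaving out an array of batch A at 0 h, 24 h, 6 d or 8 d, of batch B at any time or of batch D at 8 h or 4 d (adjusted p from 0.0501 to 0.148). The 6 d call was lost with median centring (0.22, 0.324) and without batch A (0.0621) or B (0.140). The 8 d call was lost with median centring (0.10, 0.687), without the 0 h array of batch A (0.0644) or B (0.0874) or the 8 d array of batch B (0.0584) or D (0.0910), and without batch A (0.0639) or B (0.201). The step from 8 h to 24 h was lost without the 8 h array of batch A (0.116) or the 24 h array of batch A (0.0507) or D (0.108), and without batch A (0.275), B (0.131) or D (0.0510).

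MXD3 is known from mouse cells as the MXD member expressed in cycling cells in S phase. It fell and was not above background at 6 d and 8 d. Its gene is at chr5:177305499-177312752. MXD3 was at 6.98, 7.27 and 6.89 at 0 h, at 6.27, 6.25 and 6.27 at 2 h, and at 6.67, 6.33 and 6.33 at 8 h. It was at 6.76, 6.77 and 6.70 at 24 h and at 5.93, 5.73 and 5.55 at 2 d. Every array from 2 h on lay below every 0 h array, and the 24 h arrays lay above those of 2 h and 8 h. The probe was above background on all arrays up to 2 d, on 1 of 3 at 4 d (5.34, 5.57 and 5.29, batch B the measured one) and on 0 at 6 d (5.40, 5.22 and 5.33) and 8 d (5.28, 5.14 and 4.96).

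MXD3 fell by 0.78 ± 0.12 within 2 h (1.72-fold lower, limma adjusted p = 0.00105) and by 0.61 ± 0.12 at 8 h (adjusted p = 0.00453). It was 1 of 22 genes called lower at 2 h. At 24 h the difference was −0.31 and did not pass (adjusted p = 0.0885). A second and larger fall followed, of 1.01 ± 0.12 from 24 h to 2 d (2.01-fold lower, adjusted p = 3.10e-05), and of 0.33 ± 0.12 from 2 d to 4 d (adjusted p = 0.0376), where the arrays overlapped. Against 0 h, MXD3 was lower by 1.32 ± 0.12 at 2 d (adjusted p = 4.10e-08) and by 1.65 ± 0.12 at 4 d (adjusted p = 3.28e-10, 1 of 3 arrays measured). At 6 d it was at least 2.87-fold lower (adjusted p = 7.58e-11) and at 8 d at least 2.89-fold lower (adjusted p = 1.12e-11), taking for each late array the weakest signal that was above background, or the probe's own where that was higher.

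The calls of MXD3 at 2 d, 4 d, 6 d and 8 d and in the step from 24 h to 2 d were kept under all 32 alternatives. The 2 h and 8 h calls were lost without batch A (−0.82, adjusted p = 0.108, and −0.75, 0.0700) or B (−0.66, 0.251, and −0.44, 0.235). The step from 2 d to 4 d was lost with an offset of 50 (−0.19, 0.0842), the authors' normalized values (−0.23, 0.0688), median centring (0.210), no filter (0.0661), without the 2 d array of batch A (0.197) or B (0.0809) or the 4 d array of batch A (0.102) or D (0.125), and without batch A (0.393) or B (0.0824). The 14 proliferation markers, genes of DNA replication and mitosis such as TYMS, TOP2A and CDK1, were counted at the same times. At 8 h 1 rose and 1 fell (median 0.21), or 7.14% and 7.14% against 2.13% and 2.46% of all genes. At 24 h 3 rose and 1 fell (0.27), or 21.4% and 7.14% against 6.89% and 11.2%. At 2 d 0 rose and 6 fell (−0.68), or 0% and 42.9% against 11% and 12.5%. At 8 d 0 rose and 14 fell (−2.85), or 0% and 100% against 24.1% and 23.5%. The medians of all genes at these times were −0.01, −0.0029, 0.01 and 0.02. At 2 h 0 of the 14 were called by limma, where 0.621% of all genes were, and 0 had an unadjusted p under 0.05. The list median at 2 h was −0.19 against −0.02 over all genes, and −0.30, −0.24 and −0.12 in batches A, B and D. The part of these genes in the fall of MXD3 was not tested.

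MNT, a repressor that is expressed in cycling and resting cells alike, fell from 2 h to 8 h and was higher than 0 h from 4 d. At 8 h it was at −0.36 from 0 h and did not pass (limma adjusted p = 0.195), with overlapping arrays. MNT (chr17:2384073-2401060) was above background on all 24 arrays. It was at 7.91, 7.79 and 8.48 at 0 h, at 8.79, 8.52 and 8.23 at 2 h, and at 7.63, 7.64 and 7.81 at 8 h. The batch D array at 0 h was well above the other two. MNT was at 8.03, 8.09 and 7.96 at 24 h and at 8.28, 8.22 and 8.38 at 2 d, within the 0 h range. It was at 8.74, 9.04 and 8.57 at 4 d, at 8.79, 8.73 and 8.57 at 6 d and at 8.62, 8.68 and 8.60 at 8 d, all above the highest 0 h array.

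MNT was higher than 0 h by 0.73 ± 0.15 at 4 d (1.66-fold, limma adjusted p = 0.000434), 0.64 ± 0.15 at 6 d (adjusted p = 0.00140) and 0.57 ± 0.15 at 8 d (adjusted p = 0.00326). These rises were carried by batches A and B: the 4 d, 6 d and 8 d differences were 0.84, 0.89 and 0.72 in A, 1.26, 0.94 and 0.90 in B, and 0.09, 0.08 and 0.11 in D. From 2 h to 8 h MNT fell by 0.82 ± 0.15 (1.76-fold lower, adjusted p = 0.00280), by 1.15 in A, 0.88 in B and 0.41 in D, and from 2 d to 4 d it rose by 0.49 ± 0.15 (adjusted p = 0.0141). At 2 h it was 0.45 above 0 h and did not pass (adjusted p = 0.334), with 0.88 in A, 0.73 in B and −0.26 in D. Without the 0 h array of batch D, no call of MNT was lost.

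The 4 d call of MNT was lost without batch B (0.46, adjusted p = 0.0930). Those at 6 d and 8 d were lost with median centring (0.42, 0.0829, and 0.31, 0.205), without batch A (0.0846 and 0.0831) and without batch B (0.0710 and 0.117). The step from 2 h to 8 h was lost with median centring (−0.60, 0.0847) and without batch A (0.327) or B (0.106), and that from 2 d to 4 d without the 2 d (0.0542) or 4 d (0.0987) array of batch B, batch A (0.108) or batch B (0.288).

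MXI1, a repressor of the MXD type, was close to background. Of its 4 probes (gene at chr10:110207605-110287365), the one read here was above background on 11 of 24 arrays and the other 3 on 0. It was at 5.31, 5.40 and 5.66 at 0 h, of which only batch D was measured, on 0 arrays from 2 h to 24 h, at 5.40, 5.55 and 5.50 at 2 d and at 5.63, 5.76 and 5.36 at 4 d, with 2 of 3 measured each. At 6 d it was at 5.73, 5.68 and 5.71 and at 8 d at 5.59, 5.63 and 5.85, all measured. With all 24 arrays MXI1 passed limma's test in 0 of 13 comparisons, and 1, at 6 d, had an unadjusted p under 0.05. Under an alternative that left out an array or batch, every member was called at 6 d, MXI1 among them. The values nearest to a call were 0.25 ± 0.12 at 6 d (limma adjusted p = 0.0855) and 0.23 ± 0.12 at 8 d (adjusted p = 0.108), with a 95% interval at 6 d from 0.01 to 0.49. Its F test over all time points (adjusted p = 0.0110) was lost with median centring (0.0808) and without batch A (0.143) or B (0.165). That of MAX (0.00386) was lost with median centring (0.0510) and without batch A (0.185) or B (0.114), and the F tests of the other 5 kept their call under these alternatives.

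**Figure D3:**
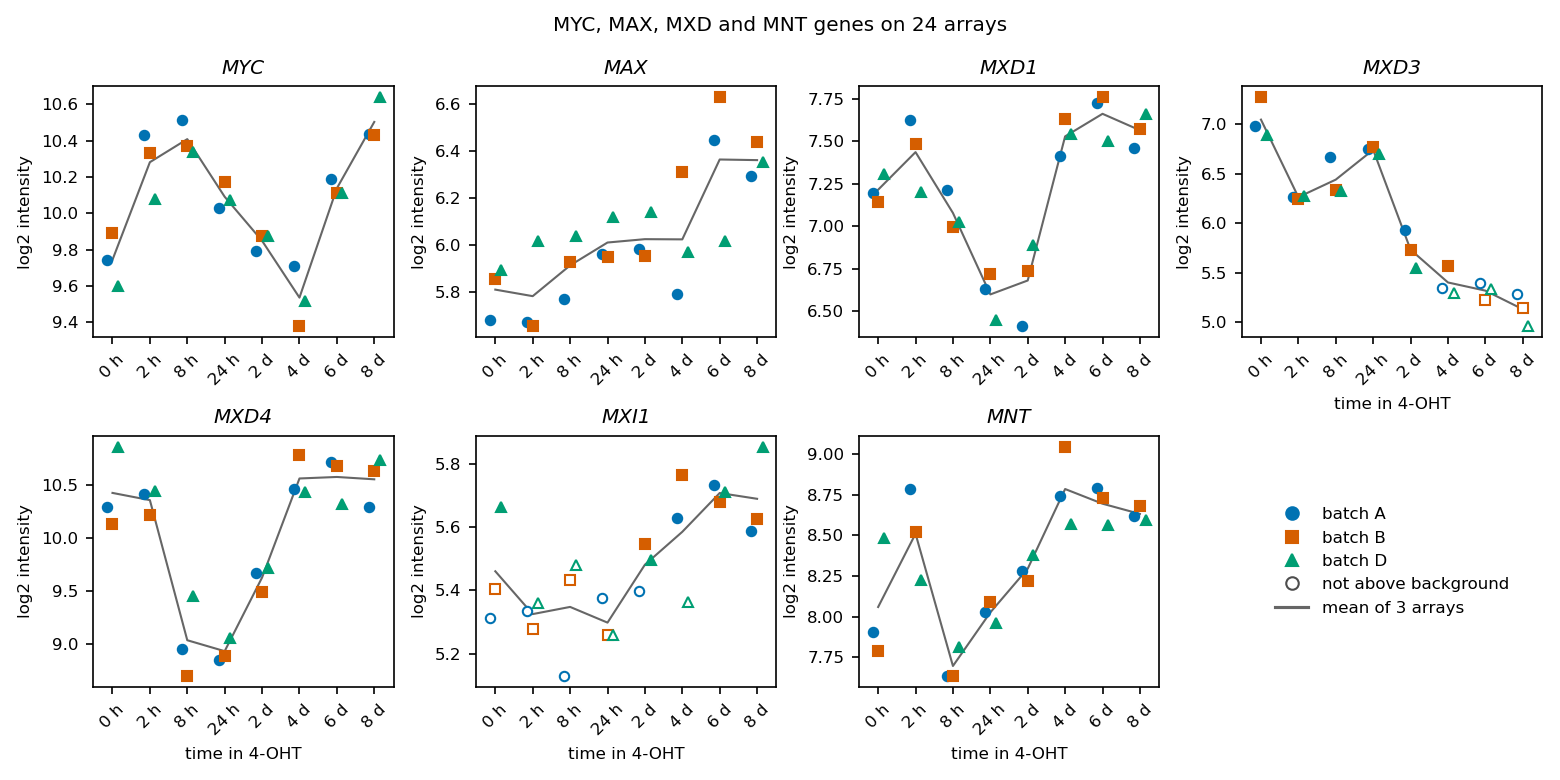
Log2 intensity (vertical axis, scaled to each gene) of the 7 genes at each time point (horizontal axis); points are single arrays of batches A, B and D, open where not above background, and lines join means of 3 arrays. MYC peaks at 8 h and 8 d with its lowest level at 4 d. MXD4 dips from 8 h to 2 d and MXD1 at 24 h and 2 d. MXD3 is not above background at 6 d and 8 d.

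The members can be set side by side at single time points. At 24 h MYC was 0.35 above 0 h while MXD4 was −1.49 and MXD1 −0.62 from it. At 4 d MYC had its lowest mean while MNT and MXD1 were called higher than at 0 h and MXD4 was not called. At 8 d MYC, MAX, MXD1 and MNT were all called higher and MXD3 lower. Over the 24 arrays, as a description of points that share 1 time course and 1 normalization, MXD4 correlated with MXD1 at r = 0.794 and with MNT at 0.783, MXD3 with MNT at −0.723, and MYC with each of the other 6 between −0.221 and 0.144.

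**Figure D4:**
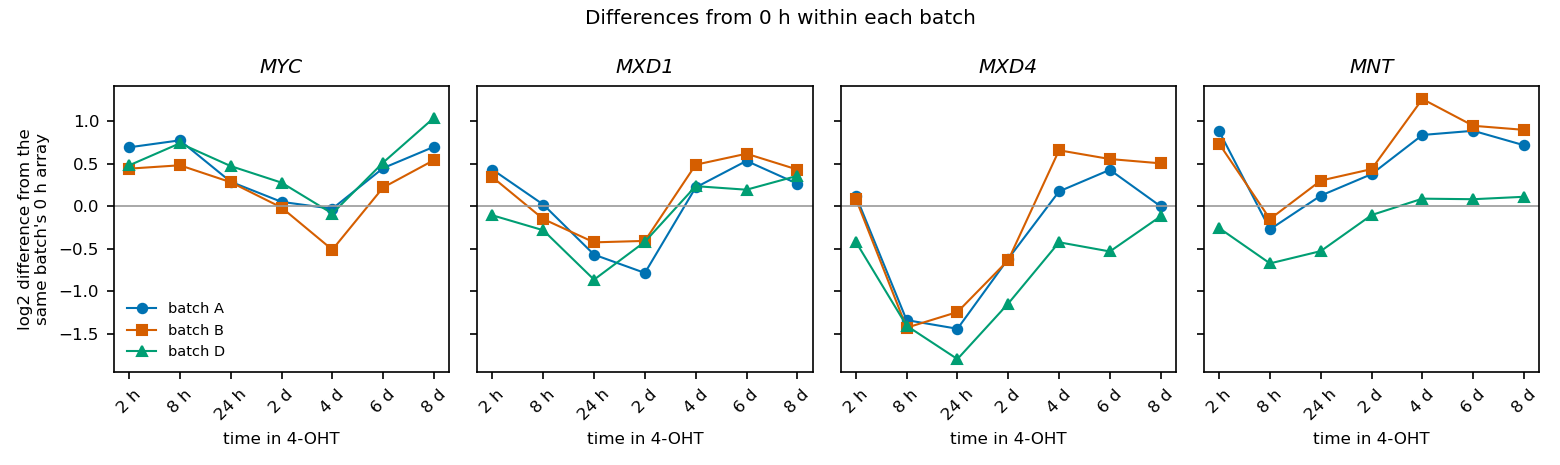
Log2 difference of each array from the 0 h array of its own batch (vertical axis) over time in 4-OHT (horizontal axis) for MYC, MXD1, MXD4 and MNT, 1 line a batch, with the grey line at 0. The batch D lines of MXD4 and MNT run below those of A and B at 4 d, where MNT was 0.84, 1.26 and 0.09 above 0 h in A, B and D.

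The genes most like each member over the 24 arrays were named by Pearson r, with no test. For MYC they were PPP1R15A, a subunit of the phosphatase that acts on eIF2α (r = 0.876), KLHL21, the elongation factor ELL2, the nucleolar protein NIFK and NAV3. MXD3 was most like CBX2, a Polycomb protein (0.949), CDC25B, a phosphatase that activates cyclin-dependent kinases, ANP32B, NUCKS1 and the DNA glycosylase NEIL3. MXD4 was most like ULK1, a kinase that starts autophagy (0.967), VGLL4, a cofactor of TEAD factors, SSH3, NPEPL1 and the transcription factor FOXF1. For MXD1 the list was CFLAR, an inhibitor of caspase 8 activation (0.939), ATF3, a stress-induced transcription factor, PLD3, SGIP1 and CTSO. MNT was most like KATNIP (0.898), BAZ2B, IRF2BPL, KLF9 and VPS9D1, and MAX most like OSBP2 (0.878), UBE2E1, ARRDC1, ZNF438 and PPFIBP2.

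Genes known as activated by MYC were counted from a list of 50, of which 44 were measured. None passed at 2 h, when MYC itself was called higher (0 of 44 in limma's test, 0 at an unadjusted p under 0.05, list median −0.01 against −0.02 over all genes). At 8 h 4 rose and 0 fell (list median 0.15), or 9.09% and 0% of the list against 2.13% and 2.46% of all genes. At 24 h 14 rose and 0 fell (0.30), or 31.8% and 0% against 6.89% and 11.2%, and at 2 d 10 rose and 1 fell (0.19), or 22.7% and 2.27% against 11% and 12.5%. At 4 d 2 were higher and 15 lower (−0.18), or 4.55% and 34.1% against 21.8% and 22.3% of all genes. From 2 d to 4 d, where MYC fell by 0.31, 1 rose and 23 fell (list median −0.40 against −0.01 over all genes), or 2.27% and 52.3% against 17% and 19.2% of all genes. In the same step 0 proliferation markers rose and 14 of 14 fell (median −1.74), or 100% lower against 19.2% of all genes. The part of MYC or of cycling cells in the fall of the MYC-activated list was not tested. From 4 d to 6 d 6 genes of the MYC-activated list rose and 1 fell (0.19), or 13.6% and 2.27% against 4.94% and 4.03%. At 6 d 10 were higher and 5 lower than 0 h (−0.01), or 22.7% and 11.4% against 23.8% and 21.7%. At 8 d 11 were higher and 6 lower (−0.07), or 25% and 13.6% against 24.1% and 23.5%, so the share called higher was close to that of all genes at both times. With the 1 gene that has only a bound at 8 h set to it, the 8 h median was 0.12.

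Of the 4 genes called higher at 8 h, the rule names 3. RRP12, an assembly factor of ribosomal subunits, was 0.73 ± 0.13 higher at 8 h (limma adjusted p = 0.00190), and NOP16 (0.60 ± 0.16, adjusted p = 0.0325) and NIP7 (0.46 ± 0.12, adjusted p = 0.0300), both nucleolar factors of the large subunit, were called higher too. WDR12, of the same assembly path, was 0.76 ± 0.12 higher at 2 d (adjusted p = 5.00e-05). The largest late rise was that of ODC1, the first enzyme of polyamine synthesis, by 1.50 ± 0.15 at 8 d (adjusted p = 1.39e-08), with 1.47, 1.57 and 1.46 in the 3 batches. RRP12 was 0.78 higher at 8 d as well, and CCND2, cyclin D2, 0.99 higher.

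Other members of the list fell. PAICS, an enzyme of purine synthesis, was −1.13 ± 0.14 from 0 h at 8 d (limma adjusted p = 2.99e-07). PRPS2, which makes the ribose donor of nucleotides, was at −0.99 ± 0.14 (adjusted p = 1.84e-06) and FBL, the methyltransferase of ribosomal RNA, at −0.78 ± 0.13 (adjusted p = 2.61e-05). SLC7A5, an amino acid transporter, was the 1 gene lower at 2 d (−0.83 ± 0.21, adjusted p = 0.00545), and its batch values were −0.59, −0.46 and −1.44. Of the list's 39 genes in the promoter table, 12 held CACGTG in a window of 250 bases, among them ODC1, SRM, CDK4, LDHA and SLC7A5 (12 of 56 windows, 21.4%, against 6.34% of all windows). For the list of MYC-repressed genes it was 1 of 13 windows, or 7.69%. The lists hold genes already known as MYC targets, so these shares describe the lists and not the arrays.

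The counts of this list depended on scaling and on batch. Median centring put the median of all genes at −0.13 at 24 h. With it the list had 0 calls at 8 h, 2 higher and 1 lower at 24 h, and 2 and 1 at 2 d. The counts were 1 and 12 from 2 d to 4 d and 1 and 0 from 4 d to 6 d. They were 4 and 7 at 6 d (list median −0.22), and 5 and 10 at 8 d (list median −0.33). Without batch B the 4 d count was 2 higher and 2 lower (list median −0.0042), that from 2 d to 4 d 0 and 7 and that from 4 d to 6 d 1 and 0. Without the 4 d array of batch B alone, they were 3 and 8, 0 and 16, and 2 and 2. The 8 h count was 0 to 2 without any 1 batch, 0 h array or 8 h array, and 10 without the 4 d array of batch B. The 24 h count was 3 without batch A, 6 without batch D, 6 without the 0 h array of batch D and 9 without the 24 h array of batch B. At 2 d it was 3 higher and 1 lower without batch A, 6 and 1 without batch B, 5 and 0 without the 0 h array of batch D, and 5 and 1 without the 2 d array of batch B. Without batch A there were 0 higher and 9 lower at 4 d and 5 and 3 at 6 d, and without batch D 5 higher and 7 lower at 6 d (list median −0.07). By batch, the list's median difference at 4 d was −0.09 in A, −0.51 in B and −0.03 in D. Of the 3 arrays of 4 d, that of batch B had the highest score on the first principal component (46.7), and MYC was lowest in it (9.38). Whether these values are linked was not tested.

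**Figure D5:**
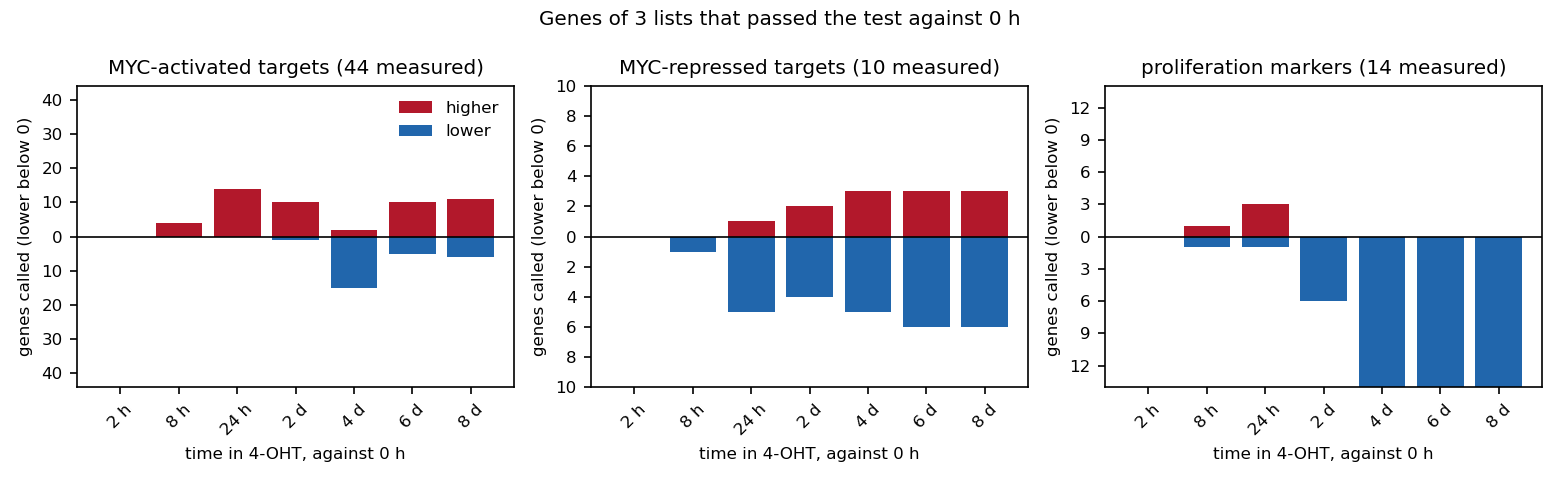
Number of genes (vertical axis, higher above 0 and lower below) of 3 lists that passed limma's test against 0 h at each later time point (horizontal axis); the axis of each panel ends at the number measured. The MYC-activated list has 14 higher at 24 h and 15 lower at 4 d, and all 14 proliferation markers are lower from 4 d.

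Genes known as repressed by MYC, 10 measured of 12, gave 0 calls at 2 h, 0 higher and 1 lower at 8 h (list median −0.34), 1 and 5 at 24 h (−0.45), 2 and 4 at 2 d (−0.36) and 3 and 6 at 8 d (−0.47). As shares called higher and lower these are 0% and 10% at 8 h against 2.13% and 2.46% of all genes. They are 10% and 50% at 24 h against 6.89% and 11.2%, and 20% and 40% at 2 d against 11% and 12.5%. At 8 d they are 30% and 60% against 24.1% and 23.5%. At 4 d 3 were higher and 5 lower (−0.41), or 30% and 50% against 21.8% and 22.3%. At 6 d 3 were higher and 6 lower (−0.43), or 30% and 60% against 23.8% and 21.7%. From 2 d to 4 d 4 rose and 0 fell (0.27), or 40% and 0% against 17% and 19.2%. From 4 d to 6 d 0 rose and 2 fell (−0.11), or 0% and 20% against 4.94% and 4.03%. At 2 h 4 had an unadjusted p under 0.05. With genes that have only a bound set to it, the medians at 8 h, 24 h, 2 d and 8 d were −0.19, −0.27, −0.33 and −0.32. At 4 d and 6 d they were −0.16 and −0.28, and from 4 d to 6 d −0.05. The rises at 8 d were those of inhibitors of the cell cycle and of NDRG1. CDKN2B, the CDK4/6 inhibitor p15, rose by 2.34 ± 0.26 at 2 d (limma adjusted p = 4.46e-07) and by 2.71 ± 0.26 at 8 d, and CDKN1A, the inhibitor p21, by 1.12 ± 0.13 at 8 d (adjusted p = 2.97e-07). CDKN1B, the inhibitor p27, went down, by 1.27 ± 0.16 at 8 d (adjusted p = 6.53e-07). COL1A2 (−2.04 ± 0.17) and PDGFRB (−1.61 ± 0.16) also fell at 8 d and are fibroblast markers. Of that list 0 rose and 8 of 12 fell at 8 d (median −1.21), or 0% and 66.7% against 24.1% and 23.5% of all genes.

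The MLX branch, a parallel network of the same protein family that responds to glucose, had 3 measured genes. MLX, the MAX-like partner, was 0.84 ± 0.15 higher at 8 d (limma adjusted p = 7.52e-05), though by 1.11 in A, 1.01 in B and 0.39 in D. TXNIP, a target of this branch that restrains glucose uptake and is also in the MYC-repressed list, was lower at 8 h (−0.61 ± 0.15, adjusted p = 0.0160) and 2 d (−1.30 ± 0.15, adjusted p = 6.36e-07) and at −0.18 at 8 d (adjusted p = 0.325). ARRDC4, its relative, was 0.83 ± 0.13 higher at 8 d (adjusted p = 1.87e-05). The glucose-sensing partners MLXIP and MLXIPL, and MYCN, were above background on 0 arrays, and MYCL was called higher at 8 d alone (0.42 ± 0.15, adjusted p = 0.0287), by −0.0022 in A, 0.51 in B and 0.74 in D.

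Cofactors of MYC and MXD, 16 measured of 18, had 3 higher and 5 lower at 8 d (median −0.06 against 0.02 over all genes), or 18.8% and 31.2% of the list against 24.1% and 23.5% of all genes. BIN1, which binds and inhibits MYC, was lower at 8 h (−0.60 ± 0.16, limma adjusted p = 0.0301) and higher at 8 d (0.44 ± 0.16, adjusted p = 0.0285, 0.05 in batch D). RUVBL1, an ATPase that MYC recruits, was 0.78 ± 0.17 higher at 2 d (adjusted p = 0.00173), and the acetyltransferase KAT2A 0.93 ± 0.14 higher at 8 d (adjusted p = 4.31e-06). SAP30, a subunit of the SIN3 complex that MXD proteins recruit, was at −0.84 ± 0.17 at 8 d (adjusted p = 0.000260) and WDR5, a chromatin cofactor of MYC, at −0.72 ± 0.12 (adjusted p = 4.10e-05). CDK9, the kinase of transcription elongation, was 0.26 higher at 8 d (adjusted p = 0.0270) and at −0.011 with median centring.

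Genes of MYC protein turnover, 12 measured of 15, had 4 higher and 6 lower at 8 d (median −0.16), or 33.3% and 50% of the list against 24.1% and 23.5% of all genes. CIP2A, which protects MYC from the phosphatase PP2A, was lower by 2.58 ± 0.26 at 8 d (limma adjusted p = 1.77e-08), and SKP2, a ubiquitin ligase subunit for MYC, by 1.68 ± 0.16 (adjusted p = 5.31e-09). AURKA, a kinase that stabilizes MYC family proteins, was lower by 1.98 ± 0.18 (adjusted p = 2.59e-09). These are also genes of cycling cells, and all 14 proliferation markers were lower at 8 d, or 100% against 23.5% of all genes. PLK1 is in both lists. The part of cycling cells in these falls was not tested. GSK3B, which marks MYC for degradation, was 0.46 ± 0.13 higher (adjusted p = 0.00494), and the ubiquitin ligases STUB1 (0.67 ± 0.13, adjusted p = 0.000238) and HUWE1 (0.45 ± 0.15, adjusted p = 0.0134) rose as well.

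Regulators of MYC transcription, 13 measured of 13, had 1 higher and 1 lower at 8 h, 1 and 5 at 2 d and 3 and 5 at 8 d (median −0.05). As shares called higher and lower these are 7.69% and 7.69% at 8 h against 2.13% and 2.46% of all genes, 7.69% and 38.5% at 2 d against 11% and 12.5%, and 23.1% and 38.5% at 8 d against 24.1% and 23.5%. PRDM1, a repressor of MYC in lymphocytes, was 0.84 ± 0.11 higher at 8 h (limma adjusted p = 6.36e-05), when MYC was higher too, and 0.91 ± 0.11 higher at 8 d (adjusted p = 2.00e-07). SMAD3, which lowers MYC downstream of TGF-beta, was at −0.68 ± 0.14 at 8 h (adjusted p = 0.00459), −0.87 ± 0.14 at 2 d and −0.90 ± 0.14 at 8 d (adjusted p = 8.66e-06). ETS2, an effector of RAS-ERK signals, was lower at 2 d (−0.61 ± 0.10, adjusted p = 0.000138) and higher at 8 d (0.96 ± 0.10, adjusted p = 5.34e-08). E2F1, which drives genes of DNA replication, was lower by 1.94 ± 0.16 at 8 d (adjusted p = 5.25e-10), and E2F4, its repressive relative, higher by 0.40 ± 0.10 (adjusted p = 0.00210).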

How the data were processed

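RNA from 24 samples of IMR90 ER:RAS-G12V cells was hybridised to Illumina human-6 v2 BeadChips with 48701 probes, 1 array a sample. The files as deposited by the authors hold log2 intensities between 3.21 and 14.8 with no normalization between arrays, and the authors' series matrix holds log2 values that match a quantile normalization of them (Spearman 1, median absolute difference 0.00274). Detection p-values and control probes were not used here. The scanner software's steps are not given in the labels or headers. Values were put on the linear scale, corrected with limma's normexp model (saddle, offset 16), log2-transformed and quantile-normalized. A background model from each array's mode and the spread below it, at a probability of 0.01, called 26.5% to 30.0% of probes above background, which limits the precision of dim genes. The 23687 probes with 1 gene symbol (35 had several, 24979 none) stood for 18774 genes, 99.8% of these probes matched RefSeq by Entrez ID, and genes above background on at least 3 arrays were tested.

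limma (3.58.1, R 4.3.3) fitted 8 group means over all arrays with no block (16 residual and 6.70 prior degrees of freedom), and each of 13 comparisons, and the F test, had its own Benjamini-Hochberg adjustment. The script was tested on simulated data. The arrays are paired by batch letter, which the labels give as biological replicates; residuals of arrays of 1 letter had a mean correlation of 0.0369 in A, 0.0044 in B and 0.0600 in D, against −0.0158 for other pairs. Alternatives were an offset of 50, the authors' normalized values, median centring, no filter, the letter as a block, and each array, batch and MAX probe in turn. The members and gene lists were chosen with earlier results of these data known, and the lists were written from general knowledge. Named list genes are up to 3 rises and 3 falls a list at 8 h, 2 d and 8 d, and all genes of lists of 5 or fewer. Likeness was computed for members above background on at least 12 arrays, 5 genes each. Promoters were RefSeq windows of GRCh38.p14.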

Additional observations from a re-analysis of the deposited data

How the results depend on the processing

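Of 35 member calls, 12 kept direction and call under every alternative tried, those named above for MYC, MXD1, MXD3 and MXD4. By setting, 34 were kept with an offset of 50, 34 with the authors' normalized values, 31 with no filter on dim probes and 23 with median centring. The alternatives that left out all of batch A, B or D, which leave 2 arrays a group, kept 14, 17 and 32. With the batch letter as a replicate block 34 were kept, and the 4 d call of MXD1 was lost (adjusted p = 0.0552); the block changed no other member call. Of the 35, the 8 d call of MAX alone changed sign, on its probe for NM_145113 (−0.032, adjusted p = 0.884), and among named list genes CDK9 did so at 8 d with median centring (−0.011, adjusted p = 0.965).

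Median centring called 1 of 7 members at 2 h, 2 at 6 d and 3 at 8 d. Of all 10952 genes it called 23, 3846 and 4222 at these times. It called 1 member from 2 h to 8 h, 3 from 2 d to 4 d and 0 from 4 d to 6 d. In these steps it called 167, 2483 and 393 of all genes. With no filter 3 members were called from 2 d to 4 d, with 3624 of 18774 genes. Leaving out 1 array or batch gave 0 to 3 members at 2 h, 1 to 3 at 8 h, 1 to 5 at 4 d, 1 to 7 at 6 d, 2 to 6 at 8 d, 0 to 3 from 2 h to 8 h, 0 to 1 from 8 h to 24 h, 1 to 2 from 24 h to 2 d, 2 to 5 from 2 d to 4 d and 0 to 2 from 4 d to 6 d. The number of all genes called changed with these settings too, so these ranges are no result about the members. In the quantile-normalized data the median of all genes was within 0.03 of 0. Median centring put it at −0.19 at 2 h, −0.13 at 24 h, −0.12 at 6 d and −0.15 at 8 d. It also cut the number of genes called from 68 to 23 at 2 h, 502 to 165 at 8 h, 1981 to 1356 at 24 h, 2582 to 1676 at 2 d, 573 to 167 from 2 h to 8 h, 1317 to 521 from 24 h to 2 d, 3963 to 2483 from 2 d to 4 d, 982 to 393 from 4 d to 6 d and 130 to 49 from 6 d to 8 d. The share of called genes that were higher went from 67.6% to 56.5% at 2 h, 38.1% to 10.5% at 24 h, 46.9% to 20.6% at 2 d, 49.5% to 37.3% at 4 d, 52.2% to 30.4% at 6 d, 50.7% to 27.3% at 8 d, 47.1% to 73.1% from 2 h to 8 h, 31.3% to 4.73% from 8 h to 24 h and 55.1% to 24.2% from 4 d to 6 d. Leaving out batch A took the genes called to 1 at 2 h, 27 at 8 h, 663 at 24 h, 866 at 2 d and 120 from 24 h to 2 d, and leaving out batch B to 13, 137, 1116, 1331 and 471. Of 215 calls of named list genes, 212 were kept with an offset of 50, 213 with the authors' normalized values, 195 with no filter, 213 with the block and 153 with median centring. The cause of these losses was not tested. Signals near background limit MXD3 from 4 d and MXI1 throughout, and the MAX probes were dim as well.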
